A study of Danio rerio with 45 samples.

Results

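The gene described here is vegfc (ENSDARG00000069640), 1 of 31465 genes in a bulk RNA-seq count table of zebrafish blastula explants. It was chosen from these counts because its level was near zero after injection of 10 pg of ndr2 mRNA and higher when cycloheximide (CHX) was added. The choice read its counts in all 15 groups, so all its values are a description with no test. Vegfc is a secreted growth factor of the vascular endothelial growth factor (VEGF) family. It is made as a precursor, and cleavage by the protease Adamts3 with the secreted cofactor Ccbe1 lets it activate its receptor Flt4, also called Vegfr3. In zebrafish it is known for lymphatic vessels, for sprouting from veins and for the shaping of the endoderm.

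The explants were animal-pole tissue cut from blastulae of the AB strain and kept in Dulbecco's Modified Eagle Medium. ndr2 codes for a Nodal ligand of the TGF-β superfamily that induces mesoderm and endoderm, and 1 animal-pole cell of each 128-cell embryo received its mRNA. CHX, which blocks translation and is used to find transcripts that change without new protein, was given at 50 µg/µl from 20 min after injection until harvest. The groups were 10 pg of ndr2 mRNA with CHX, and ndr2 mRNA alone at 0 pg (uninjected controls), 2 pg, 6 pg and 10 pg, each collected at 4, 5 and 6 h post fertilization (hpf). These make 15 groups of 3 libraries, with doses read from the sample titles, from which the figures in the descriptions differ. CHX without ndr2 mRNA was not analysed here, so what CHX does alone and what it does with ndr2 cannot be told apart. Because the mRNA went into 1 cell, each injected explant mixes cells with and without it. Nothing in the labels says that replicates came from separate batches of embryos, so a p-value here covers the spread among libraries, part of which may be technical.

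The columns of replicate 3 of 10 pg with CHX and replicate 3 of 10 pg at 4 hpf were equal in all 31465 genes, and both were left out. The remaining 43 libraries held 12137856 to 28551066 counts each, and the median over all 45 columns was 20959131. ndr2 itself averaged 21.3 to 192 counts per 1000000 counts (CPM) over the ages with CHX, 0.454 to 0.657 CPM in controls, 2.62 to 6.90 CPM with 2 pg, 10.7 to 41.6 CPM with 6 pg and 16 to 128 CPM with 10 pg. Calls here are by edgeR's quasi-likelihood test, Benjamini-Hochberg adjusted over the 21075 genes tested, with a threshold of 0.05. With 2 pg and 6 pg at 4 hpf, 29% and 15.7% of these genes were called different from controls, against 0.147% with 10 pg. The 10 pg group of that age had 2 libraries, and its calls ranged over 18 to 585 genes without single libraries. The doses were not compared with each other, so whether they differ at 4 hpf was not tested. At 5 and 6 hpf, 0.00474% and 1.24% were called with 2 pg and 0.176% and 0.636% with 6 pg. At 6 against 5 hpf, 0.0664% were called with CHX and 8.13% in controls. The CHX group of 5 hpf holds replicate 2, which a measure described below placed close to the 6 hpf CHX libraries. The CHX share was not counted without it, so the 2 shares are not read as a difference in change with age.

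vegfc was low, at 0.432 CPM or less, in every library without CHX and in both CHX libraries of 4 hpf. It was higher, at 1.36 CPM or more, in the CHX libraries of 5 and 6 hpf other than replicate 1 of 5 hpf. That replicate, with 12 counts and 0.447 CPM (counting interval 0.231 to 0.780), was not separated from the highest library without CHX. The latter, replicate 3 of 10 pg at 6 hpf, had 8 counts and 0.432 CPM (0.187 to 0.852). With CHX, vegfc had 0 and 3 counts at 4 hpf, 12, 483 and 39 counts at 5 hpf, and 409, 238 and 342 counts at 6 hpf. As levels scaled to library size, these were 0 and 0.200 CPM at 4 hpf, 0.447, 17.7 and 1.36 CPM at 5 hpf, and 14.4, 8.83 and 11.3 CPM at 6 hpf. The 35 libraries without CHX held 53 vegfc counts in all, and 15 of them held none. The 8 libraries with CHX held 1526 counts, of which 1523 came from 5 and 6 hpf. Levels are of whole explants, in which more cells with the transcript and more transcript per cell cannot be told apart.

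With ndr2 mRNA alone the level was low at every dose. Controls had 0, 2 and 1 counts at 4 hpf, 0, 2 and 2 at 5 hpf, and 2, 0 and 4 at 6 hpf. Libraries with 2 pg had no count at 4 hpf, 1, 0 and 1 at 5 hpf, and 3, 2 and 3 at 6 hpf. With 6 pg there were 0, 1 and 4 counts at 4 hpf, 0, 0 and 2 at 5 hpf, and 3, 5 and 2 at 6 hpf. The 10 pg libraries had 0 and 3 counts at 4 hpf, none in any library at 5 hpf, and 2, 0 and 8 at 6 hpf. The highest level without CHX was 0.432 CPM, in a 10 pg library of 6 hpf that held 8 counts. Without CHX no library passed 0.172 CPM at 4 hpf or 0.111 CPM at 5 hpf. The column shared by both groups at 4 hpf held 5 vegfc counts, or 0.243 CPM of its library total, so it was low whichever group it belongs to.

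**Figure D1:**
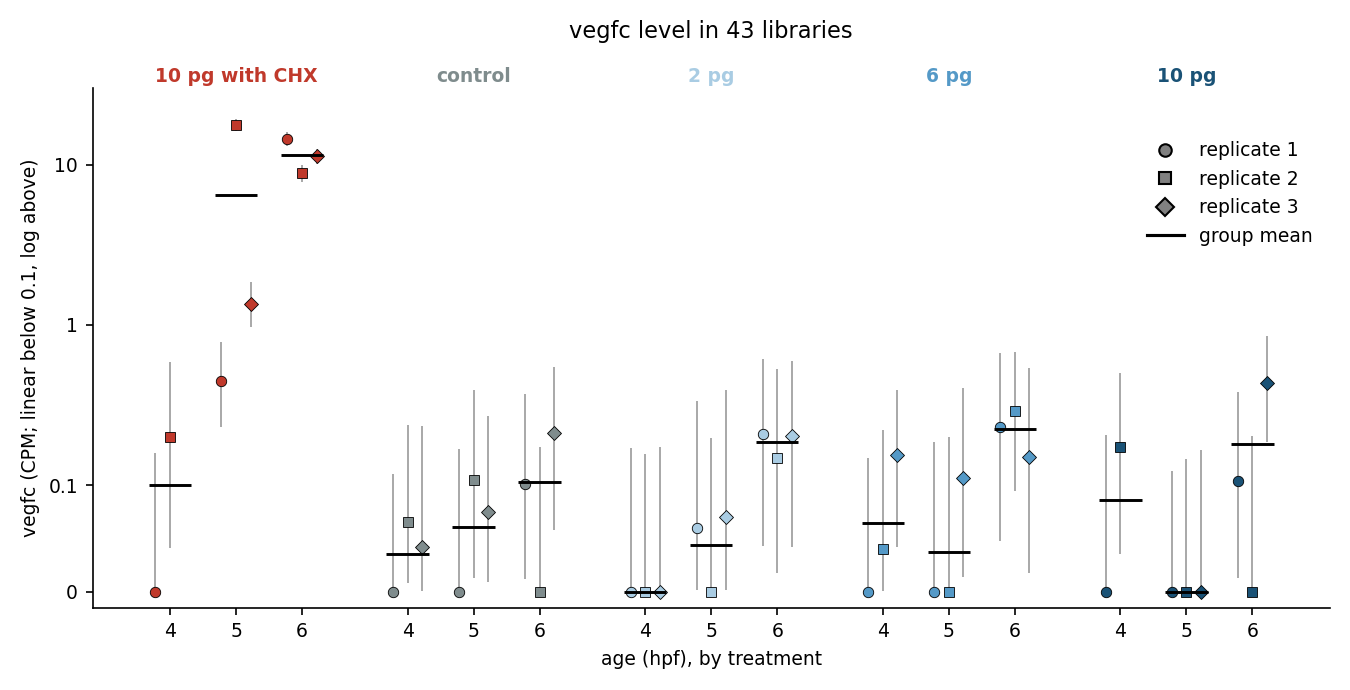
Level of vegfc (y axis, CPM, linear below 0.1 and logarithmic above) in each of 43 libraries by treatment and age (x axis, hpf). Points are libraries, grey lines their exact 95% Poisson intervals and black bars group means. The CHX libraries of 5 and 6 hpf lie at 0.447 CPM and above, and all others lie at or below 0.432 CPM. The intervals of the libraries at 0.447 and 0.432 CPM overlap.

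Group means fell into an upper pair and a lower 13. The highest was 10 pg with CHX at 6 hpf, with 11.5 ± 2.81 CPM (SD, n = 3), followed by 10 pg with CHX at 5 hpf, with 6.50 ± 9.70 CPM (SD, n = 3). The ranges of these neighbours overlapped. Below them came the groups of 6 hpf without CHX, at 0.105 ± 0.106 CPM in controls, 0.186 ± 0.0340 CPM with 2 pg, 0.223 ± 0.0714 CPM with 6 pg and 0.179 ± 0.226 CPM with 10 pg (SD, n = 3 each). Their ranges overlapped as well. The mean with CHX at 4 hpf was 0.10 ± 0.141 CPM (SD, n = 2) and that of 10 pg at 4 hpf was 0.0862 ± 0.122 CPM (SD, n = 2). The 5 other groups with a count lay between 0.0359 CPM in controls at 4 hpf and 0.0646 CPM with 6 pg at 4 hpf. Both 2 pg at 4 hpf and 10 pg at 5 hpf had no count, which allows up to 0.0449 CPM and 0.0385 CPM. These limits are 3 counts over each group's scaled library sizes, which before scaling were 60559479 and 78175795 counts.

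Summed over a group's libraries and scaled, vegfc at 4 hpf was 0.922 times as high with CHX as with 10 pg alone, with a 95% counting interval of 0.124 to 6.88 from 3 counts in each group. A difference was not detectable at that depth. At 5 hpf the CHX libraries held 534 counts and the 10 pg libraries none, which makes vegfc at least 167-fold higher with CHX when 3 counts over the group are taken as the floor. The lower limit of the 95% counting interval was 135-fold. Of the 534 counts, 483 came from replicate 2. Without it 51 counts were left, a mean of 0.903 ± 0.645 CPM (SD, n = 2), and vegfc was at least 23.8-fold higher by that floor, with a lower counting limit of 18.7-fold. At 6 hpf there were 989 counts with CHX and 10 with 10 pg, a 64.3-fold difference (95% counting interval 34.8 to 135). Against controls the ratio was 2.24 at 4 hpf (0.300 to 16.7), 108 at 5 hpf (42.0 to 398, and 15.4 without replicate 2, with an interval of 5.66 to 58.6) and 115 at 6 hpf (52.7 to 314). The lowest CHX library lay above the highest 10 pg library at 5 hpf, with 0.447 against 0 CPM, and at 6 hpf, with 8.83 against 0.432 CPM. These comparisons share the CHX libraries, the intervals cover counting error only, and reads without molecular identifiers are not independent molecules. Scaled by library totals alone, CHX libraries had 0.537, 23.4 and 1.66 CPM at 5 hpf and 17.0, 11.4 and 13.7 CPM at 6 hpf, while no 10 pg library passed 0.358 CPM.

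The fitted changes among the groups without CHX had wide errors. Each SE was derived from the test, as the absolute log2 change over the square root of its F statistic. With 2 pg against controls the log2 change of vegfc was -2.82 ± 2.33 (SE) at 4 hpf, -0.49 ± 1.81 at 5 hpf and 0.84 ± 1.38 at 6 hpf. With 6 pg it was 0.79 ± 1.58 at 4 hpf, -0.66 ± 1.79 at 5 hpf and 1.10 ± 1.34 at 6 hpf. Between ages of the controls it was 0.68 ± 1.64 at 5 against 4 hpf and 0.72 ± 1.51 at 6 against 5 hpf. The gene was chosen for low values outside CHX and passed the count filter through its CHX libraries, so no call is read from these changes. Changes of several fold in either direction could not have been seen at these counts.

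Within the CHX groups the counts were higher at 5 and 6 hpf than at 4 hpf in every library. The fitted log2 change at 5 against 4 hpf was 6.17 ± 1.49 (SE), and at 6 against 5 hpf it was 0.83 ± 0.88. Since the high CHX values chose the gene, both are a description. They depended on single libraries. At 5 against 4 hpf the change was 3.33 without replicate 2 of 5 hpf, 4.99 without replicate 1 of 4 hpf and 10.1 without replicate 2 of 4 hpf. Each of the last 2 fits left 1 library at 4 hpf. In the fit that gave 10.1 that library held 0 vegfc counts, so the size of this change is not measured. At 6 against 5 hpf it was 3.66 without replicate 2 of 5 hpf.

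Replicate 2 of the CHX group at 5 hpf stood apart from its group in vegfc and in a position computed from the other tested genes. A measure chosen after the values were seen placed each CHX library on the line between the mean profiles of the 4 hpf (position 0) and 6 hpf (position 1) CHX libraries, over all tested genes but vegfc. Replicate 2 of 5 hpf lay at 0.978, while replicates 1 and 3 lay at 0.497 and 0.557. The 6 hpf CHX libraries lay at 1.09, 0.908 and 1.01. ndr2, itself one of the genes behind the position, had 301 and 82.7 CPM at 4 hpf, 98.7, 21.6 and 58.0 CPM in replicates 1, 2 and 3 of 5 hpf, and 20.8, 27.3 and 15.8 CPM at 6 hpf. Replicate 2 of 5 hpf lay within the 6 hpf range of ndr2. Replicate 1 of 5 hpf, at 98.7 CPM, lay above the 4 hpf library with 82.7 CPM, so ndr2 did not order all libraries as position did. In position, the library with 17.7 CPM of vegfc lay with those of 6 hpf, and replicates 1 and 3, with 0.447 and 1.36 CPM, lay about midway between the ages. Distance from the line was not measured, so likeness of the whole profile is not known. The age of replicate 2 is known only from its label, and whether that label is right was not tested. Values of this group at 5 hpf thus hold only as far as the label does. The part of library position in the vegfc level was not tested either.

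**Figure D2:**
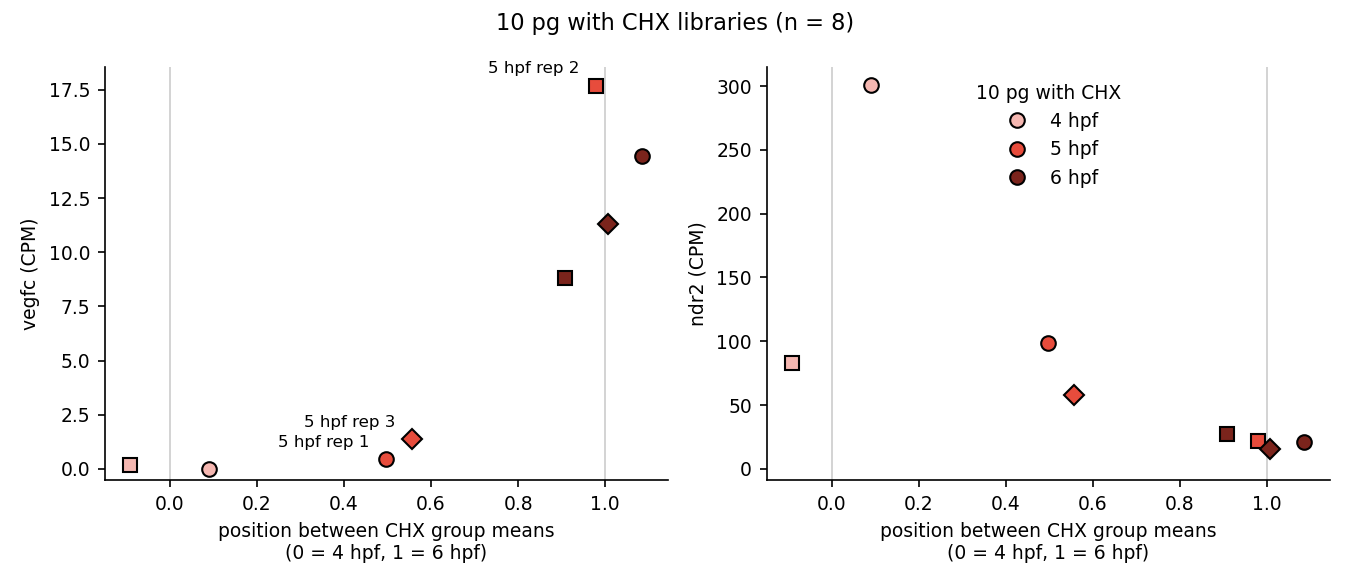
Level of vegfc (left, CPM) and of ndr2 (right, CPM) in the 8 libraries of 10 pg with CHX against each library's position between the group means of 4 hpf (0) and 6 hpf (1). Points are libraries coloured by age, with circles, squares and diamonds for replicates 1, 2 and 3. Replicate 2 of 5 hpf, at position 0.978, lies among the 6 hpf libraries in position and in ndr2. In vegfc, at 17.7 CPM, it lies above them, the highest of which has 14.4 CPM.

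The VEGF ligands and the proteins that process them were next compared, as a list of 15 genes without vegfc, of which 13 passed the count filter and vegfbb and VEGFD did not. With CHX against 10 pg, none was called at 4 hpf by edgeR or DESeq2, with 1 at an unadjusted p below 0.05, where 0.555% of all genes were called. At 5 hpf 6 were higher and 2 lower, where 49.2% of all genes were called, 25% higher and 24.2% lower. At 6 hpf 6 were higher and 1 lower, where 56.2% were called, 29% higher and 27.2% lower. Without replicate 2 of 10 pg at 5 hpf, 3 members rather than 6 were called higher at that age. The list's median log2 change was 1.08 at 5 hpf and 0.39 at 6 hpf, beside 0.03 and 0.12 over all genes tested. Against controls, which share the CHX libraries, none was called at 4 hpf by edgeR or DESeq2 (1 at an unadjusted p below 0.05, 0.251% of all genes called), 4 were higher and 1 lower at 5 hpf (48.8% called, 24.1% higher), and 6 were higher and 2 lower at 6 hpf (54.8% called, 28.4% higher). With 10 pg against controls no member was called at any age by edgeR or DESeq2, and none had an unadjusted p below 0.05, where 0.147%, 0.223% and 0.474% of all genes were called at 4, 5 and 6 hpf. With shares of this size over all genes, a call with CHX for any single gene is common.

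CCBE1, the cofactor of Vegfc cleavage, was among the genes higher with CHX. It had 3.13, 2.27 and 3.52 CPM with CHX at 5 hpf, against 0.568, 0.196 and 0.357 CPM with 10 pg, a log2 change of 2.96 ± 0.68 (SE, adjusted p = 0.000496). At 6 hpf it had 1.55, 2.00 and 1.69 CPM with CHX, against 0, 0 and 0.162 CPM with 10 pg, a log2 change of 4.87 ± 0.88 (adjusted p = 1.64e-05). The groups did not overlap at either age. Its course differed from that of vegfc in that it was already present at 4 hpf, with 3.09 ± 0.315 CPM with CHX (n = 2), 2.94 ± 0.745 CPM with 10 pg (n = 2) and 2.93 ± 1.02 CPM in controls (n = 3). In controls it fell at 5 against 4 hpf by 2.69 ± 0.68 on the log2 scale (adjusted p = 0.00108), while with CHX the change between those ages was -0.06 ± 0.68 (adjusted p = 0.971). Whether these changes with age differ between CHX and controls was not tested.

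ADAMTS3, the protease that cleaves the Vegfc precursor, had a like course. Its mean level was 1.65 ± 0.320 CPM with CHX and 0.364 ± 0.192 CPM with 10 pg at 5 hpf, and 0.884 ± 0.615 CPM with CHX and 0.163 ± 0.0958 CPM with 10 pg at 6 hpf (SD, n = 3 each). The log2 change was 2.15 ± 0.85 at 5 hpf (adjusted p = 0.0344) and 2.40 ± 0.94 at 6 hpf (adjusted p = 0.0292). Both calls depended on single libraries. At 5 hpf the call was lost without CHX replicate 1 (adjusted p = 0.0649) or 2 (0.0618) or without 10 pg replicate 2 (0.134) or 3 (0.0694). At 6 hpf it was lost without CHX replicate 2 (0.0783) or 3 (0.0942) or without 10 pg replicate 1 (0.112) or 3 (0.0513). At 4 hpf ADAMTS3 stood at 1.57 ± 0.813 CPM with CHX (n = 2), 0.847 ± 0.304 CPM with 10 pg (n = 2) and 1.56 ± 1.30 CPM in controls (n = 3), and in controls it fell by 2.05 ± 0.86 on the log2 scale at 5 against 4 hpf (adjusted p = 0.043).

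SVEP1, an extracellular matrix protein that takes part in lymphatic growth, was higher with CHX against 10 pg. It was higher by 2.02 ± 0.35 at 5 hpf (adjusted p = 1.2e-05) and by 1.96 ± 0.35 at 6 hpf (adjusted p = 1.53e-05). Its level with CHX was 12.6 ± 5.55 CPM at 4 hpf (n = 2), 28.2 ± 10.2 CPM at 5 hpf and 20.0 ± 4.33 CPM at 6 hpf, and with 10 pg 8.08 ± 3.05, 6.92 ± 1.50 and 5.14 ± 1.14 CPM at those ages. Of the 21 VEGF ligand, processing and receptor genes tested, 2 were higher and 0 lower with CHX at 5 against 4 hpf, and SVEP1 was among them, higher by 1.16 ± 0.39 (adjusted p = 0.0348). Over all genes 17.3% were called there. In controls 3 were higher and 6 lower between those ages, a share of the 21 below the 54.1% called over all genes. PCSK5, a proprotein convertase of the family that cleaves VEGF precursors, was higher with CHX against 10 pg. It was higher by 1.13 ± 0.35 at 5 hpf (adjusted p = 0.00726) and by 1.92 ± 0.36 at 6 hpf (adjusted p = 3.01e-05). The PCSK5 call at 5 hpf was lost without 10 pg replicate 2 (0.84, adjusted p = 0.0693). PGF, a ligand of Flt1, was higher with CHX against 10 pg by 1.89 ± 0.71 at 5 hpf (adjusted p = 0.0267) and 2.75 ± 0.90 at 6 hpf (adjusted p = 0.00954). In controls PGF fell by 2.41 ± 0.71 at 5 against 4 hpf (adjusted p = 0.00484). With CHX its change between those ages was -0.57 ± 0.74 (adjusted p = 0.643). The PGF call at 5 hpf was lost without CHX replicate 1 (adjusted p = 0.113) or 3 (0.0514) or without 10 pg replicate 2 (0.0691) or 3 (0.105). Of the convertase named FURIN there are 2 zebrafish genes, whose reads the counting could have split. ENSDARG00000070971 was higher with CHX against 10 pg by 2.16 ± 0.49 at 6 hpf (adjusted p = 0.000381) and had a change of 1.08 ± 0.46 at 5 hpf (adjusted p = 0.0516) that lay at the threshold. It was called without CHX replicate 1 (adjusted p = 0.0409) or 10 pg replicate 3 (0.0317), and also by DESeq2 (0.0496), with library totals (0.013), with all 45 columns (0.0488) and with the shared column in the CHX group only (0.0493). In controls ENSDARG00000070971 fell by 1.61 ± 0.47 at 5 against 4 hpf (adjusted p = 0.0041). With CHX its change between those ages was -0.10 ± 0.51 (adjusted p = 0.925). Whether the changes of PGF and of this gene with age differ between CHX and controls was not tested. With CHX against 10 pg, ENSDARG00000062909 had FURIN changes of -0.34 ± 0.23 and -0.21 ± 0.23 at 5 and 6 hpf that were not called.

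The other VEGF ligand genes had other courses. VEGFA has 2 genes, and their reads may likewise have been split. ENSDARG00000103542 had 1.82 ± 0.307 CPM with CHX and 0.173 ± 0.0821 CPM with 10 pg at 5 hpf, and was higher with CHX by 3.33 ± 0.83 (adjusted p = 0.00122). In controls this gene fell by 3.10 ± 0.81 at 5 against 4 hpf (adjusted p = 0.00167). With CHX its change between those ages was -0.50 ± 0.79 (adjusted p = 0.713). Whether these changes with age differ was not tested. At 6 hpf this gene had 0.80 ± 0.458 CPM with CHX and 0.725 ± 0.400 CPM with 10 pg, with a log2 change of 0.14 ± 0.76 (adjusted p = 0.887). With CHX against 10 pg, ENSDARG00000034700 had VEGFA changes of 0.09 at 5 hpf and 0.06 at 6 hpf, neither called. At 5 against 4 hpf this gene rose by 2.73 ± 0.89 with CHX (adjusted p = 0.0304) and by 2.34 ± 0.73 in controls (adjusted p = 0.00699). vegfba, a Vegfb gene, was lower with CHX than with 10 pg alone at both ages. It was lower by 2.21 ± 0.81 at 5 hpf (adjusted p = 0.0231) and lower by 2.17 ± 0.75 at 6 hpf (adjusted p = 0.0138). Its call at 5 hpf was lost without CHX replicate 1 (adjusted p = 0.0805) or 3 (0.114) or without 10 pg replicate 2 (0.104), and at 6 hpf without CHX replicate 1 (0.0631) or 2 (0.0582). Scaling by library totals alone also ended both calls (0.0506 and 0.0572). In controls vegfba rose by 5.37 ± 1.01 at 5 against 4 hpf (adjusted p = 3.72e-05). With CHX its change between those ages was 1.03 ± 1.16 (adjusted p = 0.588). Whether these changes of vegfba with age differ was not tested. pcsk5a, another Pcsk5 gene, was lower with CHX by 3.93 ± 1.20 at 5 hpf (adjusted p = 0.00712), on 1 count with CHX and 21 with 10 pg. Its change at 6 hpf of -2.10 ± 1.06 was not called (adjusted p = 0.0914), and was called without CHX replicate 3 (adjusted p = 0.0488). ADAMTS14, a protease related to Adamts3, had changes of -0.29 ± 0.42 at 5 hpf and 0.39 ± 0.43 at 6 hpf, and the convertase gene PCSK7 had changes of 0.37 ± 0.28 at 5 hpf and 0.14 ± 0.28 at 6 hpf, none of them called.

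**Figure D3:**
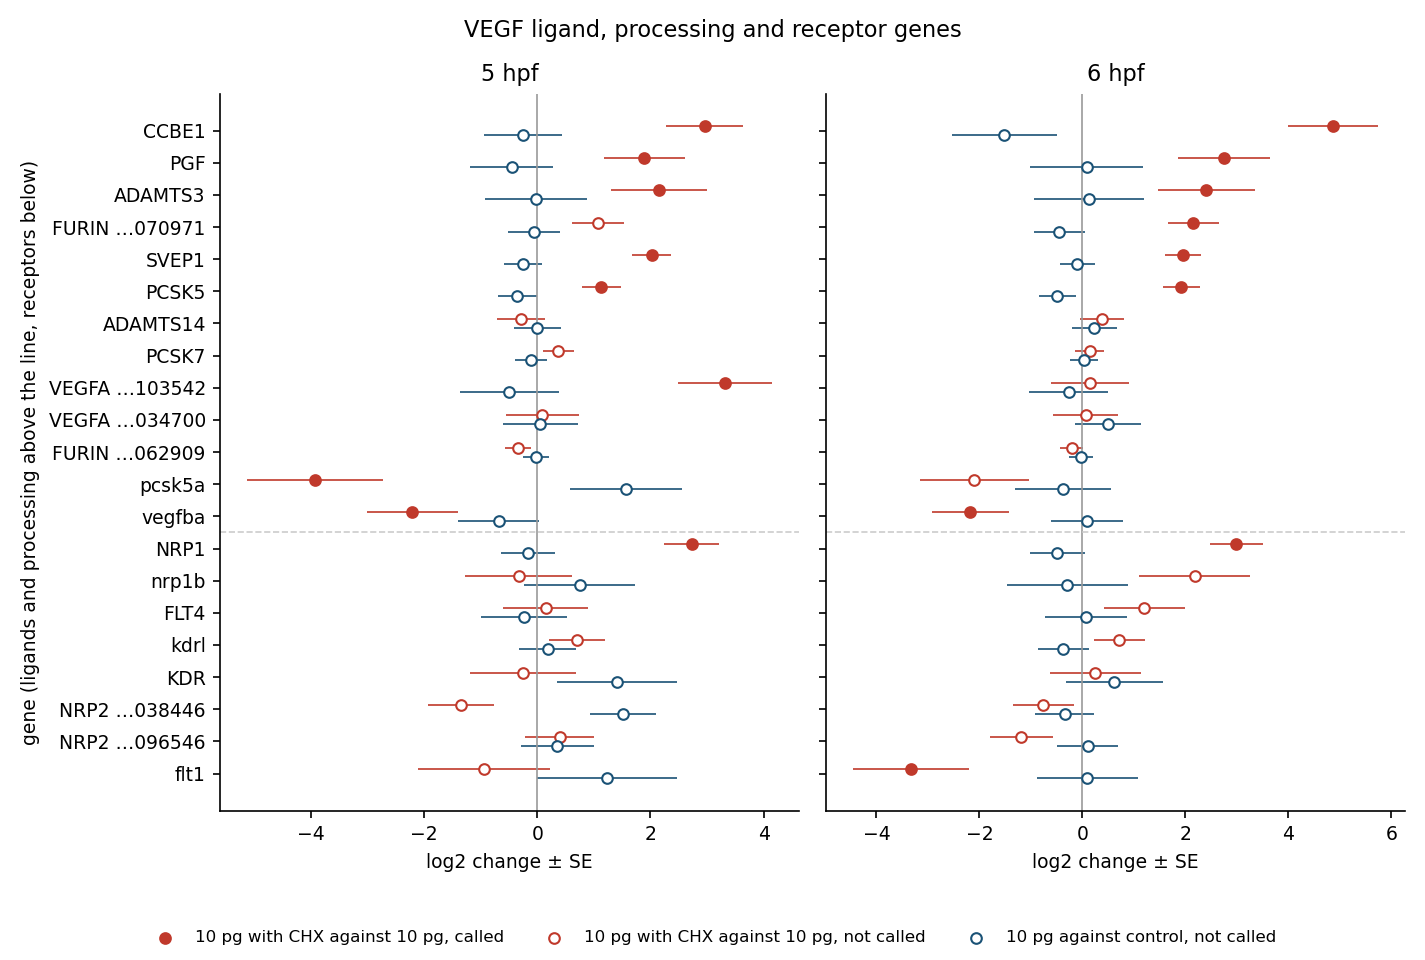
Log2 change with its SE (x axis) at 5 hpf (left) and 6 hpf (right) of 13 tested VEGF ligand and processing genes (above the dashed line) and 8 receptor genes (below it), for 10 pg with CHX against 10 pg (red) and 10 pg against control (blue). Filled points passed an adjusted p of 0.05. CCBE1, PGF, ADAMTS3, SVEP1 and PCSK5 are called higher with CHX at both ages, and no gene is called for 10 pg against control.

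Of the 8 receptor and co-receptor genes, all tested, none was called at 4 hpf with CHX against 10 pg by edgeR or DESeq2, and 0 had an unadjusted p below 0.05. At 5 hpf 1 was higher, and at 6 hpf 1 was higher and 1 lower, with median log2 changes of -0.05 and 0.48. Over all genes 49.2% and 56.2% were called at these ages, so the receptor genes had fewer calls than that background. FLT4, the receptor that Vegfc binds, was detected in all these groups and its change was not called at any age. At 5 hpf it had 2.84 ± 1.97 CPM with CHX and 2.56 ± 1.63 CPM with 10 pg, with a log2 change of 0.15 ± 0.75 (adjusted p = 0.888). At 6 hpf it had 3.43 ± 2.93 CPM with CHX and 1.48 ± 0.804 CPM with 10 pg, with a change of 1.21 ± 0.78 (adjusted p = 0.187). NRP1, a neuropilin that serves as a VEGF co-receptor, was the gene called higher. It had 5.85 ± 2.24 CPM with CHX and 0.876 ± 0.326 CPM with 10 pg at 5 hpf (log2 change 2.73 ± 0.48, adjusted p = 1.89e-05), and 3.47 ± 0.540 CPM with CHX and 0.432 ± 0.0103 CPM with 10 pg at 6 hpf (2.99 ± 0.51, adjusted p = 8.68e-06). Like CCBE1, NRP1 was present in controls at 4 hpf, with 5.45 ± 1.55 CPM, and fell in them by 2.46 ± 0.48 on the log2 scale at 5 against 4 hpf (adjusted p = 5.85e-05).

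Among the other receptor genes flt1, which codes for a receptor of Vegfa, Vegfb and Pgf, was lower with CHX at 6 hpf, with a log2 change of -3.34 ± 1.13 (adjusted p = 0.012), with 0.179 ± 0.0981 CPM with CHX and 1.84 ± 1.73 CPM with 10 pg. The flt1 call was lost without CHX replicate 3 (adjusted p = 0.0557) or 10 pg replicate 1 (0.103). At 5 hpf its change was -0.95 ± 1.17 (adjusted p = 0.526). The other 5 genes had changes at 5 and 6 hpf that were not called: the Vegfr2 genes KDR (-0.25 ± 0.93 and 0.25 ± 0.88) and kdrl (0.70 ± 0.49 and 0.71 ± 0.50), and the neuropilin genes nrp1b (-0.33 ± 0.95 and 2.18 ± 1.07) and NRP2, which are ENSDARG00000038446 (-1.35 ± 0.58 and -0.76 ± 0.59) and ENSDARG00000096546 (0.39 ± 0.62 and -1.18 ± 0.61).

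**Figure D4:**
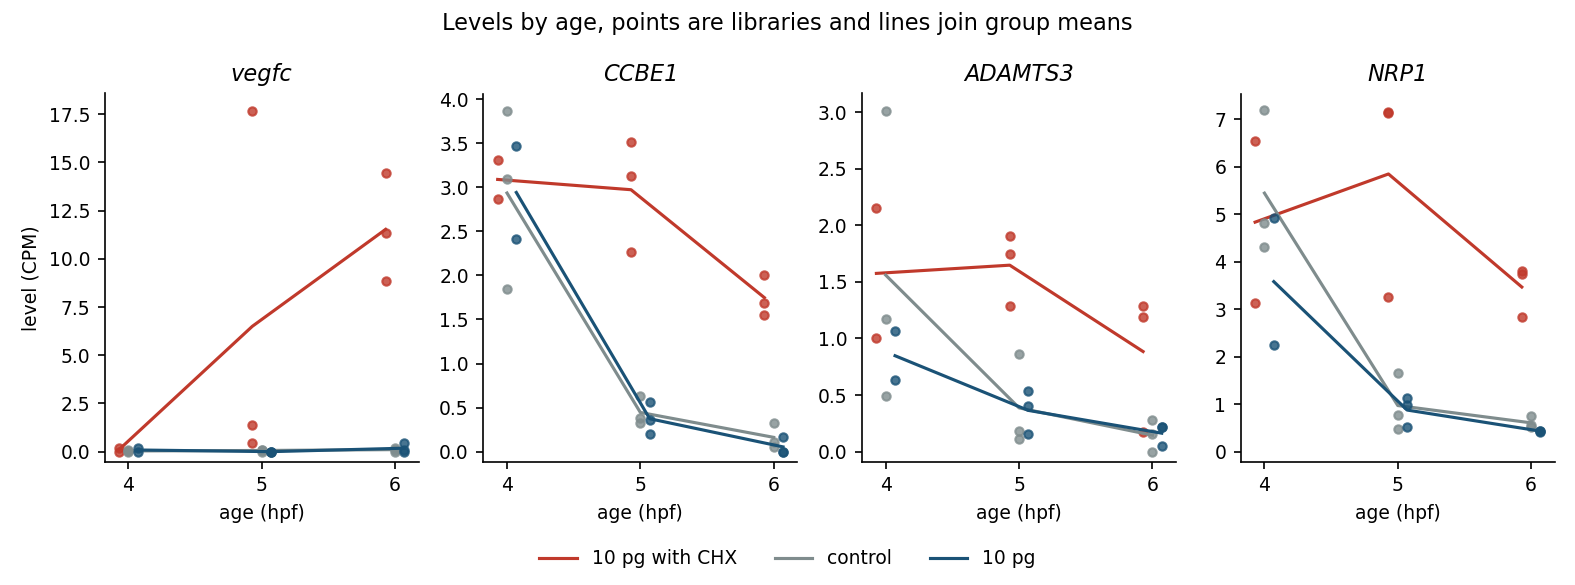
Levels (y axis, CPM) of vegfc, CCBE1, ADAMTS3 and NRP1 by age (x axis, hpf) with 10 pg and CHX (red), in controls (grey) and with 10 pg (blue). Points are libraries and lines join group means. vegfc is near 0 at 4 hpf in all 3 conditions, whereas CCBE1, ADAMTS3 and NRP1 are present at 4 hpf and are lower at 5 and 6 hpf in controls and with 10 pg.

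The genes most like vegfc were found by Pearson correlation of group mean log2 CPM over the 15 groups, among 17724 genes that reached 1 CPM in at least 1 group. The points share libraries and scaling, so the correlations are descriptions. The median over all genes was 0.0204, and 9 genes (0.0508%) passed 0.9. Among them, from the highest down, were ENSDARG00000103837, which the tables used here do not name (0.956), SLC3A1, an amino acid transporter subunit (0.921), irf1b, an interferon regulatory factor (0.921), KCNF1, a potassium channel subunit (0.918), CEBPD, a bZIP transcription factor (0.910), TWF2, an actin-binding twinfilin (0.908), zgc:174888 (0.907) and FST, the secreted activin antagonist follistatin (0.905). tdo2b, a tryptophan dioxygenase, was the next at 0.898.

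In most of these genes the library that stood apart in vegfc was also the highest of the CHX group at 5 hpf. The genes were chosen by group means that include this library, whose position over all tested genes but vegfc lay with the 6 hpf libraries. A shared high value there was thus favoured by the choice and is a description. FST had 0.447, 23.9 and 3.06 CPM at 5 hpf and 40.0, 23.2 and 39.2 CPM at 6 hpf with CHX, against means of 0.802 ± 0.492 CPM and 1.09 ± 0.534 CPM with 10 pg. In controls FST had 0.201 ± 0.187 CPM at 5 hpf and 0.247 ± 0.115 CPM at 6 hpf. Its log2 change with 10 pg alone against controls was 1.90 at 5 hpf and 2.11 at 6 hpf. irf1b had 0.745, 16.2 and 2.93 CPM at 5 hpf and 37.0, 20.1 and 32.6 CPM at 6 hpf with CHX, against 0.419 ± 0.338 CPM and 1.09 ± 0.420 CPM with 10 pg. KCNF1 had 0.112, 5.20 and 0.731 CPM at 5 hpf and 7.38, 4.23 and 4.30 CPM at 6 hpf with CHX, against 0.247 ± 0.282 CPM and 0.107 ± 0.108 CPM with 10 pg. CEBPD, with 0.261, 3.77 and 0.662 CPM at 5 hpf, zgc:174888, with 0.298, 4.94 and 0.801 CPM, and tdo2b, with 0, 0.732 and 0.348 CPM, had the same order of libraries. The gap was smaller in SLC3A1, with 0.968, 1.65 and 0.697 CPM at 5 hpf, and in ENSDARG00000103837, with 1.68, 2.34 and 1.36 CPM. TWF2 had no such gap, with 1.45, 1.10 and 1.32 CPM. Leaving out replicate 2 of 5 hpf kept 8 of the 10 genes in the top 10. Correlation over the 43 libraries kept 5 of them, and rank correlation over the groups kept 0.

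**Figure D5:**
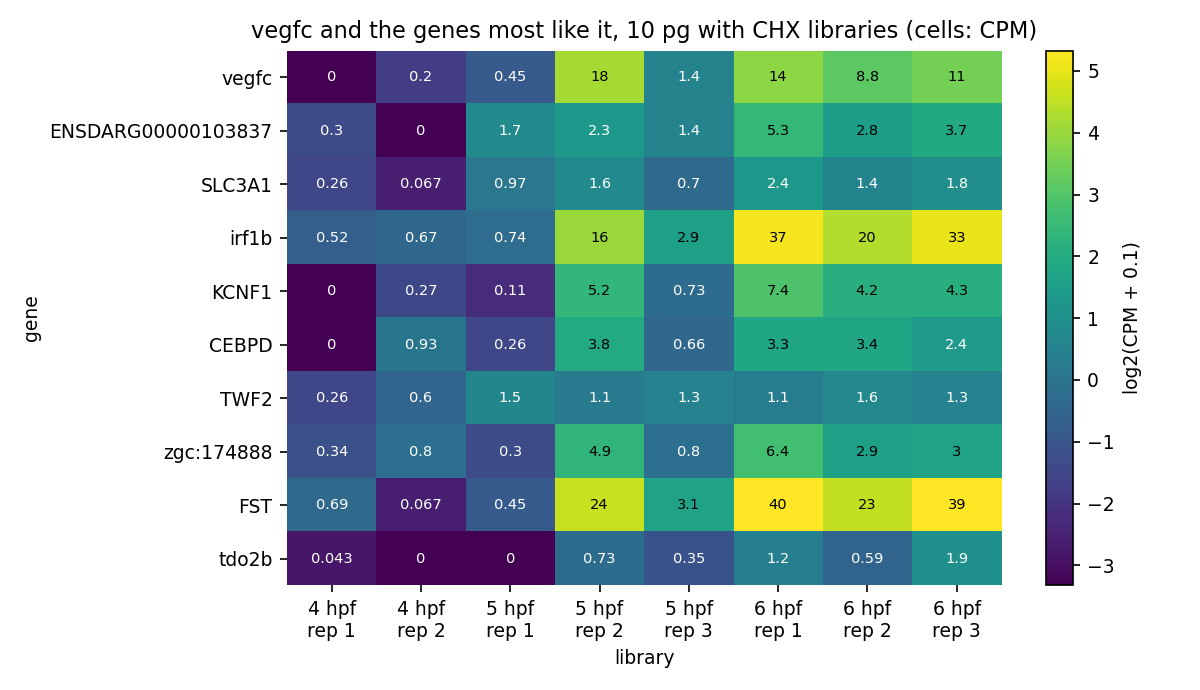
Levels of vegfc and the genes most like it that are described here (rows) in the 8 libraries of 10 pg with CHX (columns, by age and replicate). Colour is log2(CPM + 0.1) and each cell prints the CPM. FST, irf1b and KCNF1 share with vegfc the high value in replicate 2 of 5 hpf, whereas TWF2 does not.

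Genes that lie near vegfc in the genome had other patterns. They were taken by gene order in RefSeq's GRCz12tu annotation, which is not the build of the counts. Only genes whose symbol matched a single gene ID of the counts were used, so unmatched genes may lie nearer. Of the matched genes SPCS3, asb5b and WDR17 lie nearest on one side and mir2197, DCTD and irf2a on the other. At 6 hpf SPCS3, a subunit of signal peptidase, had 14.7 ± 2.60 CPM with CHX and 65.4 ± 7.52 CPM with 10 pg. irf2a had 87.5 ± 9.78 CPM with CHX and 230 ± 20.8 CPM with 10 pg, asb5b 1.01 ± 0.205 CPM with CHX and 5.52 ± 0.770 CPM with 10 pg, and WDR17 0.0235 ± 0.0408 CPM with CHX and 0.729 ± 0.621 CPM with 10 pg. DCTD, a deoxycytidylate deaminase, had 36.5 ± 3.31 CPM with CHX and 21.2 ± 3.76 CPM with 10 pg (SD, n = 3 each). mir2197 had no count in these groups.

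Ligands and receptors of the related PDGF family were counted as well. Of 6 tested PDGF ligand and receptor genes, 4 were higher with CHX against 10 pg at 5 and at 6 hpf and none was lower, with median log2 changes of 1.63 and 1.56. Over all genes 25% were higher and 24.2% lower at 5 hpf, and 29% higher and 27.2% lower at 6 hpf. Against controls 3 were higher and 0 lower at 5 hpf (48.8% of all genes called, 24.1% higher). At 6 hpf 4 were higher and 1 lower than in controls (54.8% called, 28.4% higher). PDGFC, a ligand, had 19.0 ± 10.2 CPM with CHX and 2.93 ± 1.86 CPM with 10 pg at 5 hpf (log2 change 2.69 ± 0.55, adjusted p = 0.000116). At 6 hpf PDGFC had 6.79 ± 2.71 CPM with CHX and 0.945 ± 0.618 CPM with 10 pg (2.83 ± 0.58, adjusted p = 9.82e-05). Like CCBE1 it was present at 4 hpf, with 20.6 ± 9.65 CPM in controls. PDGFA (ENSDARG00000098578), PDGFD and the receptor PDGFRA were the other 3 genes called against 10 pg.

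Genes of vessels and blood, the tissues in which Vegfc acts later, included calls in both directions. Of 17 tested in the endothelial, lymphatic and blood list, 6 were higher and 3 lower with CHX against 10 pg at both 5 and 6 hpf, with medians of 0.83 and 0.95. That share was near the 49.2% and 56.2% called over all genes. gata2b, a transcription factor of blood precursors, rose by 2.48 ± 0.83 at 5 hpf (adjusted p = 0.013) and 6.70 ± 1.08 at 6 hpf (adjusted p = 3.15e-06), and NR2F2, a transcription factor of venous and lymphatic endothelium, by 2.70 ± 0.69 (adjusted p = 0.00154) and 3.69 ± 0.80 (adjusted p = 0.000205). hhex had 24 counts at 5 hpf and 59 at 6 hpf with CHX and none with 10 pg. TIE1, an endothelial receptor, fell by 3.92 ± 0.81 at 5 hpf and fell by 3.24 ± 0.78 at 6 hpf. The summed level of the list was 79.5 to 126 CPM with CHX and 210 to 351 CPM with 10 pg at 6 hpf, so the sums did not overlap. Such a sum weighs abundant genes most, and here it went against the list's median. GATA2 of this list is also in the blastoderm list. Of the genes that define endothelium and its precursors, etv2 was not matched to a gene ID and LMO2 is not given here. At 6 hpf FLI1 had 0.397 to 1.20 CPM with CHX and 0.0552 to 0.432 CPM with 10 pg. TAL1 had 0.0331 to 0.185 CPM with CHX and 0.110 to 0.757 CPM with 10 pg, and cdh5 0.529 to 0.667 CPM with CHX and 0.0526 to 0.662 CPM with 10 pg. The part of endothelial cells and their precursors in the vegfc level was not tested.

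Marker genes of other cell types were counted beside the same background of 49.2% called at 5 hpf and 56.2% at 6 hpf. Of 18 genes of the enveloping layer, the outer epithelium of the blastula, 16 were lower with CHX against 10 pg at 5 hpf and at 6 hpf and none was higher, with medians of -7.86 and -9.58. Their summed level was 620 to 1482 CPM with CHX, 21721 to 30772 CPM with 10 pg and 20844 to 27019 CPM in controls at 6 hpf, and the keratin krt92 had 0 to 0.0371 CPM with CHX and 1019.8 to 1797 CPM with 10 pg. At 5 hpf the sum was 239 to 927 CPM with CHX and 6891 to 13463 CPM with 10 pg. Controls at 4 hpf had a sum of 347 to 585 CPM. Genes of the blastoderm and pluripotency had 2 higher and 12 lower of 19 at 5 hpf and 2 higher and 13 lower at 6 hpf, with a summed level at 6 hpf of 3334 to 4544 CPM with CHX and 6815 to 7407 CPM with 10 pg. Primordial germ cell genes had 4 higher and 1 lower of 8 at 5 hpf and 4 higher and 0 lower at 6 hpf, with sums of 379 to 420 CPM with CHX and 251 to 293 CPM with 10 pg at 6 hpf. At 5 hpf the germ cell sums overlapped, with 318 to 489 CPM with CHX and 315 to 485 CPM with 10 pg. Yolk syncytial layer genes had 2 higher and 2 lower of 13 at 5 hpf and 3 higher and 5 lower at 6 hpf, with sums of 159 to 316 CPM with CHX and 227 to 293 CPM with 10 pg at 6 hpf. The yolk syncytial sums overlapped, and the calls in that list were below the background at 5 hpf and near it at 6 hpf. The part of these marker levels in the vegfc level was not tested.

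Lists of pathways that respond to signals or stress held calls in both directions. Over all genes 25% were higher and 24.2% lower at 5 hpf, and 29% higher and 27.2% lower at 6 hpf. Of 42 immediate early genes, which transcribe on a stimulus without new protein, 8 were higher and 11 lower with CHX against 10 pg at 5 hpf and 11 higher and 12 lower at 6 hpf, near those shares. NR4A1, an orphan nuclear receptor, rose by 1.63 ± 0.58 at 5 hpf (adjusted p = 0.0209) and 3.56 ± 0.64 at 6 hpf (adjusted p = 2.02e-05). A growth arrest gene named GADD45A, a symbol that 2 genes share, fell by 3.95 ± 0.71 and fell by 1.78 ± 0.65. The other gene of that symbol is not given here. Of 17 genes of the NF-kB pathway, 5 were higher and 7 lower at 5 hpf and 6 were higher and 6 lower at 6 hpf. irf1b, also among the genes most like vegfc, rose by 3.93 ± 0.88 (adjusted p = 0.00039) and 4.77 ± 0.89 (adjusted p = 3.23e-05), while tnfb, a tumor necrosis factor, fell by 7.97 ± 0.83 and fell by 8.21 ± 0.84.

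The lists that follow stand beside the same background. The Atf4 and integrated stress response list had 4 higher and 8 lower of 18 at 5 hpf and 4 higher and 7 lower at 6 hpf, among them atf4a, its transcription factor, which fell by 3.62 ± 0.50 and fell by 3.53 ± 0.49, and ppp1r15b, a phosphatase subunit of that response, which rose by 3.08 ± 0.50 and 4.90 ± 0.57. The hypoxia list, which holds regulators and targets of the Hif factors, had 3 higher and 6 lower of 22 at 5 hpf and 4 higher and 7 lower at 6 hpf, and PFKFB3, a glycolytic regulator, fell by 2.22 ± 0.46 and fell by 3.13 ± 0.48. Erk feedback and Ets genes had 1 higher and 7 lower of 11 at 5 hpf and 1 higher and 9 lower at 6 hpf, with changes of DUSP6, an Erk phosphatase, of -1.73 ± 0.38 and -1.77 ± 0.38. Nodal targets had 2 higher and 12 lower of 20 at 5 hpf and 1 higher and 10 lower at 6 hpf, with median log2 changes of -1.76 and -1.42. SOX17, an endoderm transcription factor, went the other way from most of the list, higher by 5.20 ± 1.29 and 3.54 ± 1.16. Against controls, 17 Nodal targets were higher with CHX at 5 hpf and 16 at 6 hpf, where 24.1% and 28.4% of all genes were higher. With 10 pg alone 17 and 18 were higher than in controls, where 0.223% and 0.474% of all genes were called.

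These list counts move with the scaling of libraries. By library totals alone the median log2 change of all genes with CHX against 10 pg was 0.36 at 5 hpf and 0.68 at 6 hpf, against 0.03 and 0.12 with TMM scaling, and 64.1% and 70.0% of the called genes were higher, against 50.8% and 51.7%. Of the 21075 genes tested, library totals gave 6686 higher and 3751 lower at 5 hpf, and 8706 higher and 3729 lower at 6 hpf. The list counts below stand beside these. The hypoxia list then had 3 higher and 3 lower at 5 hpf and 7 higher and 4 lower at 6 hpf, with medians of 0.18 and 0.44 in place of -0.15 and -0.12, the NF-kB list 7 higher and 6 lower and then 8 higher and 5 lower, with medians of 0.27 and 0.57 in place of -0.06 and -0.00, and the immediate early list 11 higher and 8 lower and then 15 higher and 8 lower. The Atf4 list had 4 higher and 6 lower at 5 hpf and 6 higher and 5 lower at 6 hpf, and the yolk syncytial list had 5 higher and 2 lower at 6 hpf. The VEGF ligand and processing list had 8 higher and 1 lower at 5 hpf and 7 higher and 0 lower at 6 hpf. The VEGF receptor list had 1 higher at 5 hpf, with a median of 0.26, and 4 higher and 1 lower at 6 hpf.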

How the data were processed

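Total RNA of explants was sequenced, and the deposited table gives raw counts of reads per Ensembl gene. Per the submitters' processing notes, the authors used STAR, featureCounts, DESeq2 and the build GRCz11, with no roles or versions stated. The annotation release, like the strand setting of the counting, was not given in the sources used here, so overlapping and antisense genes cannot be told apart. Symbols came from a gene name table that matched 28965 of 31465 IDs. Where it holds a human-style symbol, that form is printed, and genes that share a symbol are given by ID, except GADD45A. Sequences of vegfc were not used here.

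From the counts, edgeR 4.0.16 (R 4.3.3) fitted its robust quasi-likelihood model to 43 libraries in 15 groups with TMM scaling and 28 residual degrees of freedom. The filter on low counts had a count minimum of 10 and a total minimum of 15, which left 21075 genes, and vegfc passed it through its CHX libraries. Tests of vegfc between doses and ages were planned but are not used, because the choice of the gene read all groups. Each of 19 comparisons was adjusted by Benjamini-Hochberg over those genes, with a threshold of 0.05. CPM values use TMM-scaled library sizes. Every SE of a log2 change was derived from its test, as the absolute change over the square root of the F statistic. Counting intervals are exact at 95%, and the floor is 3 counts. Library totals of 12137856 to 28551066 counts set the precision. DESeq2 1.42.0, other scalings, no count filter, fits within an age, other uses of the shared column, a replicate block and leaving out each library were tried. The code was tested on simulated data.

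Named genes were vegfc, all VEGF genes, up to 4 called genes of each other list by size of change, the 10 most alike genes (1 of them is not reported here), 3 neighbours on each side and ndr2. vegfc, the gene lists and the tests were chosen with earlier results of these data known. Whether replicate numbers pair samples was checked by correlating deviations from group means over 8915 genes: 53 same-numbered pairs gave -0.590 to 0.861. In 4 of 15 comparisons with 3 pairs, all pairs passed 0.1 (10 pg with CHX against 10 pg at 5 hpf and against controls at 5 and 6 hpf, and 10 pg against controls at 6 hpf). The 0.861 came from 10 pg with CHX against 10 pg at 4 hpf, where 2 libraries per group make both pairs the same value. The pairing comes from the numbers in the titles, and the main fit holds no replicate term.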

Additional observations from a re-analysis of the deposited data

How the results depend on the processing

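Without CHX the vegfc level was computed only with TMM scaling, where no library of the fit passed 0.432 CPM, and by library totals, where none passed 0.358 CPM. The gene was chosen for low values there, so this is a description and no test of robustness. Low counts limit these levels: outside CHX at 5 and 6 hpf no library had more than 8 vegfc counts, and directions there are not settled. Leaving out each library in turn, the log2 change of vegfc ranged over -1.03 to 0.10 for 2 pg against controls at 5 hpf, -0.67 to 1.55 for 6 pg against controls at 4 hpf and -0.25 to 1.31 for controls at 6 against 5 hpf. With CHX it ranged over 3.33 to 10.14 at 5 against 4 hpf and over 0.28 to 3.66 at 6 against 5 hpf. The 10.14 was set against 1 library of 4 hpf with 0 vegfc counts. These changes of vegfc are a description. The mean of CHX at 5 hpf ranged over 0.897 to 9.48 CPM.

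Counts of called genes at 4 hpf were the least stable, and the causes were not tested. CHX against 10 pg (117 genes) gave 421 with DESeq2, 77 with no count filter, 8 from libraries of that age, 7 with all 45 columns, 0 with the shared column in 10 pg only and 562 with it in CHX only. CHX against controls (53) gave 186 with DESeq2 and 180 with the shared column in CHX only. At 4 hpf, 10 pg against controls (31) gave 87 with DESeq2, and at 5 hpf (47) it gave 9 from libraries of that age. Without single libraries these counts ranged over 2 to 324 for CHX against 10 pg at 4 hpf, 32 to 145 for CHX against controls at 4 hpf, and 18 to 585, 30 to 87 and 64 to 91 for 10 pg against controls at 4, 5 and 6 hpf. At 5 and 6 hpf the CHX counts stayed within 1.5 times under all alternatives run.

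VEGF ligand and processing genes called higher at 5 hpf ranged over 3 to 6 for CHX against 10 pg without single libraries, and were 7 rather than 4 against controls by library totals. Over all genes 7138 rather than 5089 were then higher against controls at 5 hpf. VEGFA (ENSDARG00000103542) for CHX against controls at 6 hpf was -0.12, 0.41 by library totals and 0.13 with the replicate block. Without single libraries it ranged over -0.65 to 0.63 there and -0.39 to 0.47 against 10 pg, and flt1 at 5 hpf ranged over -1.51 to 1.52 against 10 pg and -0.35 to 1.39 against controls, none called. The replicate block gave 5.79 for vegfc with CHX at 5 against 4 hpf and moved no count of called genes by over 1.5 times. Of the 10 genes most like vegfc, 5 remained over the 43 libraries and 0 by rank correlation.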
